A study of Homo sapiens with 6 samples.

Results

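The genes described here are 38 lysosome, V-ATPase and autophagy genes, chosen by symbol from the 60662 genes with a value. They comprise 4 lysosomal membrane proteins, 8 lysosomal proteases, 5 glycosidases and lipid-handling proteins, 14 subunits and accessory proteins of the V-ATPase, 2 transcription factors and 5 autophagy genes. HCT116 is an established human colorectal carcinoma line, and both groups were HCT116 cells stably transduced with a lentiviral hairpin. The shCtrl group carried a nontarget hairpin and is labelled WT. The knockdown (KD) group carried GMDS-AS1 shRNA 2, a single hairpin against the long noncoding RNA GMDS-AS1, so an effect of the knockdown and an effect of that hairpin cannot be told apart. Poly-A selected RNA was sequenced from 3 biological replicates of each group, and expression was deposited as TPM, a share of all transcripts that is corrected for transcript length.

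The lysosome is the acidic compartment in which cells digest proteins, glycans and lipids, and its membrane is lined by heavily glycosylated proteins, above all LAMP1 and LAMP2. It is acidified by the V-ATPase, a rotary proton pump with a cytosolic V1 part that hydrolyses ATP and a membrane V0 part that conducts protons. Autophagy delivers cytoplasm to the lysosome in double-membraned vesicles marked by proteins of the LC3 and GABARAP family. The transcription factors TFEB and TFE3 bind E-box motifs in many promoters of this system, an arrangement known as the CLEAR network.

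Because that network is read through promoters, the promoters of these genes in RefSeq (GRCh38.p14), from 250 bases before to 50 bases after the gene start, were searched for the E-box CACGTG, which reads the same on both strands. A promoter entry was found for 29 of the 38 genes. ATP6V0E1, ATP6V1A, ATP6V1B2, ATP6V1C1, ATP6V1H, CTSB, HEXA, LAMP2 and PSAP had no entry. The E-box was present in at least 1 promoter of 7 of the 29 genes (24.1%), and of 8.77% of all 27305 genes in the table. Counted by promoter entry, it was in 7 of 36 (19.4%) and in 7.26% of all 35116. LAMP1 held 6 copies, starting 192, 176, 159, 142, 28 and 1 bases upstream of the gene start, and it was the only 1 of the 35116 promoters with 5 or more. The copies are shown because LAMP1 was also the gene with the largest fall, with the E-box in capitals and lower case flanks, on the forward strand of chromosome 13 (113297035 to 113297064, 113297051 to 113297080, 113297068 to 113297097, 113297085 to 113297114, 113297199 to 113297228 and 113297226 to 113297255).
LAMP1 copy 192 bases upstream: accaggccgggtCACGTGggtccagggtca
LAMP1 copy 176 bases upstream: tgggtccagggtCACGTGccgctgcgggtc
LAMP1 copy 159 bases upstream: gccgctgcgggtCACGTGccgctgcgggtc
LAMP1 copy 142 bases upstream: gccgctgcgggtCACGTGtcggcctgcatc
LAMP1 copy 28 bases upstream: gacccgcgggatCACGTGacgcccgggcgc
LAMP1 copy 1 base upstream: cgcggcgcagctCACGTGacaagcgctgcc

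The other 6 promoters held 1 or 2 copies, all within 59 bases upstream of the gene start. They are shown for comparison with LAMP1, with 1 copy for each gene, since 5 of these 6 genes changed in the other direction. They lie on chromosome 16 from 67481199 to 67481228 (ATP6V0D1, reverse strand), chromosome 19 from 7522598 to 7522627 (MCOLN1, forward), chromosome 11 from 1763957 to 1763986 (CTSD, reverse), chromosome 9 from 114587699 to 114587728 (ATP6V1G1, forward), chromosome 20 from 45891298 to 45891327 (CTSA, forward) and chromosome 1 from 43974891 to 43974920 (ATP6V0B, forward).
ATP6V0D1: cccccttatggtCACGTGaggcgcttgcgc
MCOLN1: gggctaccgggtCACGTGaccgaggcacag
CTSD: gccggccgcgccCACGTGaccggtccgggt
ATP6V1G1: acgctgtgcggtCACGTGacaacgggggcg
CTSA: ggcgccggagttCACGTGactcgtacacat
ATP6V0B: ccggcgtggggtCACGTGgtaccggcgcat

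The longer palindromic CLEAR motif, which contains the E-box, was present in 2 of the 29 genes, MCOLN1 and ATP6V1G1, and in 0.421% of all 27305 genes. A match of letters is a description of the sequence and does not show that a factor binds there.

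**Figure D1:**
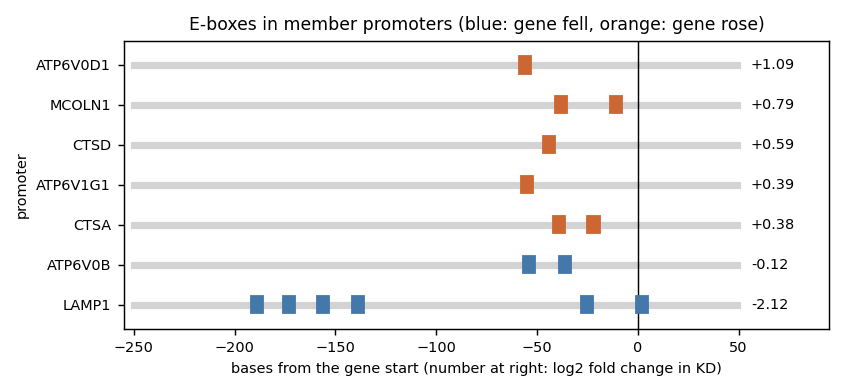
Position of each E-box (coloured blocks) in the promoters of the 7 genes that hold it, in bases from the gene start, with the log2 fold change in KD cells at the right. Blue marks genes that fell and orange genes that rose: LAMP1 has 6 blocks and a log2 fold change of -2.12, and 5 of the other 6 genes rose. Among all genes tested, 28.5% rose and 25.9% fell.

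Before the comparison, the libraries and their labels were examined. Across genes, Pearson's r of log2(TPM + 1) was 0.987 to 0.988 within groups and 0.975 to 0.976 between groups. GMDS-AS1, listed as GMDS-DT, was at 1.66, 2.21 and 1.34 TPM in shCtrl and at 0.88, 0.91 and 0.79 TPM in KD cells. In log2(TPM + 1) after the scaling between libraries described below, its change was -0.41 with a standard error of 0.14 (adjusted p = 0.0407, limma). At so low a level the added 1 makes this value understate the change in TPM. Of 9 colon epithelial markers, EPCAM was at 156 ± 13.3 TPM in shCtrl and 149 ± 9.52 TPM in KD cells (SD, n = 3), while KRT19 fell from 1769 ± 55.5 to 1242 ± 27.1 TPM. CDX1 was listed at 0 and VIL1 stayed at or below 0.41 TPM. The summed markers of leukocytes were at 0.9 to 2.9 TPM and those of endothelium at 0.2 to 1.1 TPM. Among fibroblast markers, COL1A1 carried nearly all of the summed 10.2 to 15.0 TPM. KRT8 and KRT18 fell too, both by at least 2-fold, so 3 of the 7 tested epithelial markers were lower in KD cells. The other 4 did not pass the test. The lowest log2 fold change of the 7 was -1.83 and the median was 0.021. The summed TPM of the 9 epithelial markers was 9622, 9296 and 9173 in shCtrl and 3469, 3446 and 3548 in KD libraries.

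The test covered the 16901 genes that reached 0.5 TPM in 3 or more libraries, and the 38 genes all passed this filter. TPM was scaled between libraries by a trimmed mean of log ratios, and log2(TPM + 1) was compared with limma and the Benjamini-Hochberg adjustment over all 16901 genes. A gene is said to have risen or fallen at an adjusted p under 0.05. Scaling mattered, since TPM as deposited put the median log2 fold change of all tested genes at -0.20 and the trimmed mean at -0.0020. Library values below are TPM as deposited, while log2 fold changes (log2FC, KD minus shCtrl) with their standard errors (SE) are on the scaled log2(TPM + 1) scale, which understates changes of low genes. In bulk RNA, fewer cells of a kind and less RNA per cell cannot be told apart.

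In KD cells the lysosomal membrane proteins LAMP1 and LAMP2 fell by more than 2-fold, and 11 of the 14 V-ATPase genes rose. Of the 38 genes, 20 rose, 11 fell and 7 did not pass the test. Of all tested genes 54.3% were called, with 28.5% higher and 25.9% lower. With TPM as deposited 16 rose and 16 fell, against 16.3% and 40.3% of all tested genes, and with upper-quartile scaling 18 rose and 13 fell, against 23.5% and 30.8%. Those that rose under all 3 scalings numbered 16 and those that fell numbered 11, against 16.3% and 25.9% of all genes, or 42.2% in either direction. The genes have more RNA than most, with a median level of 50.02 TPM against 8.68 TPM for all tested genes. Among the 10585 tested genes with a mean at least that of TFEB, the lowest of the 38 at 4.59 TPM, 66.1% were called, 39.6% higher and 26.6% lower. The median log2FC of the 38 was 0.33, or 0.084 with TPM as deposited.

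A change of at least 2-fold at an adjusted p under 0.05 was seen in 5 of the 38 genes, 3 higher and 2 lower, where 7.17% of all tested genes passed this rule, 2.93% higher and 4.24% lower. The groups did not overlap in TPM as deposited in 32 of the 38 genes and in 63.7% of all tested genes, or 62% with scaled TPM and 72.2% of the genes with a mean at least that of TFEB.

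**Figure D2:**
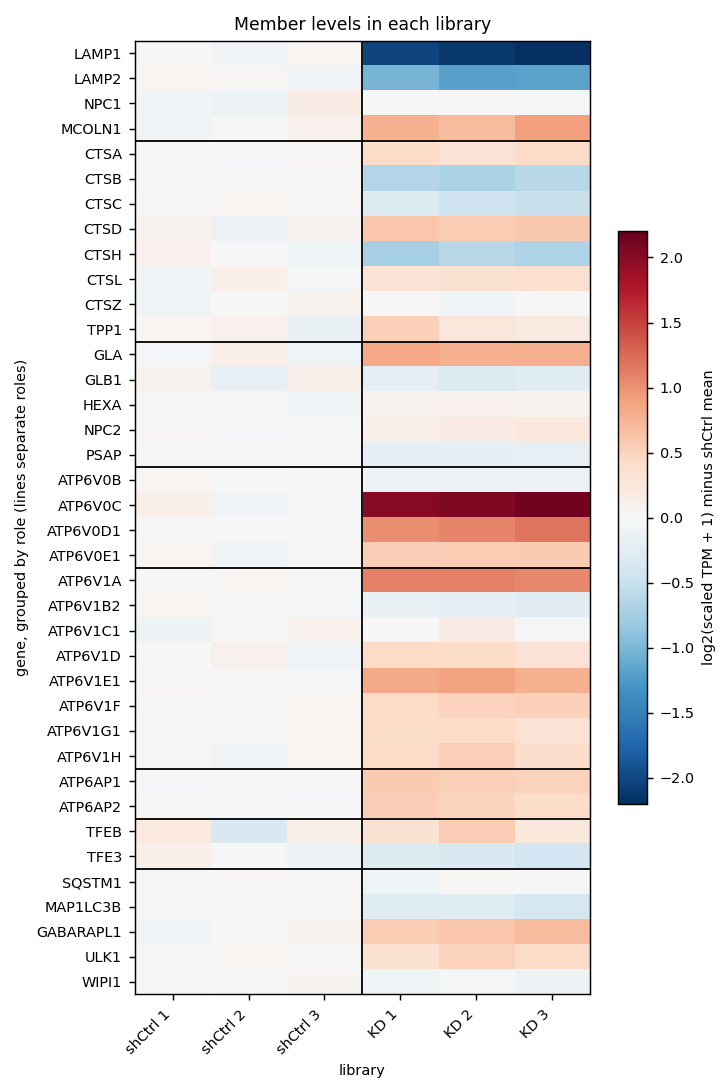
Level of each of the 38 genes (rows, grouped by role) in each of the 6 libraries (columns), as log2(scaled TPM + 1) minus the mean of the shCtrl libraries. The 3 KD libraries resemble each other: LAMP1 is lowest and ATP6V0C highest, and most V-ATPase rows are above the shCtrl level.

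Among the membrane proteins, LAMP1 (ENSG00000185896, chromosome 13 from 113297241 to 113323672, forward strand, GRCh38) had the largest fall of the 38 genes. Its level was 142, 136 and 144 TPM in shCtrl and 28.6, 26.2 and 24.97 TPM in KD cells. Every KD library was thus far below every shCtrl library, with a KD mean at 18.9% of the shCtrl mean. The log2FC was -2.12 (SE 0.058, adjusted p = 9.66e-07, limma), and it was -2.36 with TPM as deposited. LAMP2 (ENSG00000005893, chromosome X from 120427827 to 120469365, reverse strand), whose protein shares the lysosomal membrane with LAMP1 and serves in chaperone-mediated autophagy, was at 25.5, 25.5 and 23.2 TPM in shCtrl and at 9.80, 8.44 and 8.82 TPM in KD cells. Its groups did not overlap either, and the log2FC was -1.13 (SE 0.068, adjusted p = 1.68e-05, limma). LAMP1 fell further than LAMP2, a contrast that does not depend on scaling because it can be read within each library. The ratio of LAMP1 to LAMP2 TPM was 5.57, 5.32 and 6.20 in shCtrl and 2.92, 3.10 and 2.83 in KD libraries.

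The other membrane proteins did not follow. MCOLN1, the calcium channel of the lysosomal membrane, was at 11.9, 12.5 and 13.3 TPM in shCtrl and at 18.9, 17.5 and 20.6 TPM in KD cells. All KD libraries were higher, with a log2FC of 0.79 (SE 0.074, adjusted p = 0.000136, limma). MCOLN1 shares exon sequence on the same strand with PNPLA6 in GENCODE v29, and how reads were divided between them was not tested. NPC1, which exports cholesterol from the lysosome, was at 58.3 ± 5.62 TPM in shCtrl and 48.6 ± 0.445 TPM in KD cells (SD, n = 3), with a log2FC of -0.010 (adjusted p = 0.921, limma) that was -0.25 with TPM as deposited (adjusted p = 0.0158, limma).

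Of the 8 lysosomal proteases, 4 rose and 3 fell, beside 28.5% and 25.9% of all tested genes, and 1 did not pass the test. CTSB, the cysteine protease cathepsin B and the most abundant protease of the list in shCtrl cells, fell most in TPM. It was at 227, 227 and 223 TPM in shCtrl and at 121, 115 and 126 TPM in KD cells. The KD libraries stayed well below the shCtrl libraries, with a log2FC of -0.65 (SE 0.030, adjusted p = 5.78e-06, limma). CTSH, an aminopeptidase, was at 19.9, 18.5 and 16.9 TPM in shCtrl and at 9.05, 9.70 and 9.46 TPM in KD cells, and its log2FC was -0.67 (SE 0.069, adjusted p = 0.000219, limma). CTSC, which activates granule serine proteases, fell from 39.2 ± 1.22 to 24.6 ± 1.83 TPM (SD, n = 3), with a log2FC of -0.41. These 3 falls were also called with TPM as deposited and with upper-quartile scaling.

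CTSD, the aspartic protease cathepsin D, went the other way. It was at 79.3, 68.9 and 77.5 TPM in shCtrl and at 97.3, 91.9 and 97.0 TPM in KD cells, a log2FC of 0.59 (SE 0.059, adjusted p = 0.000194, limma). The balance of the 2 cathepsins therefore changed within the libraries, with a CTSB to CTSD ratio of 2.86, 3.30 and 2.87 in shCtrl and 1.246, 1.256 and 1.299 in KD cells. CTSA, which protects neuraminidase and beta-galactosidase, rose by a log2FC of 0.38, also under all 3 scalings. The rises of CTSL and TPP1 depended on the scaling. The log2FC of CTSL was 0.33 (adjusted p = 0.00171, limma), or 0.087 with TPM as deposited (adjusted p = 0.235, limma). That of TPP1 was 0.32 (adjusted p = 0.033, limma), or 0.081 with TPM as deposited (adjusted p = 0.543, limma). TPP1 was no longer called in 4 of the 6 fits that left out 1 library each: without shCtrl replicate 1 (adjusted p = 0.0651, limma), 2 (0.0501) or 3 (0.116), or without KD replicate 1 (0.063). CTSZ was at 95.4 ± 4.75 TPM in shCtrl and 78.9 ± 2.36 TPM in KD cells (SD, n = 3), with a log2FC of -0.025 (adjusted p = 0.675, limma) that was -0.27 with TPM as deposited (adjusted p = 0.0022, limma).

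Among the glycosidases and lipid-handling proteins, GLA, the alpha-galactosidase deficient in Fabry disease, rose. It was at 15.1, 17.6 and 14.3 TPM in shCtrl and at 24.4, 23.2 and 23.9 TPM in KD cells, without overlap and with a log2FC of 0.82 (SE 0.073, adjusted p = 0.000109, limma). PSAP, the precursor of the saposins and the most abundant of the 38 genes, fell from 378 ± 4.04 to 275 ± 6.44 TPM (SD, n = 3), a log2FC of -0.21 (adjusted p = 0.000212, limma). GLB1, the lysosomal beta-galactosidase, fell by a log2FC of -0.27 (adjusted p = 0.0288, limma). This call was lost without shCtrl replicate 1 (adjusted p = 0.0677, limma), shCtrl replicate 3 (0.0678), KD replicate 2 (0.083) or KD replicate 3 (0.0672). NPC2, the soluble partner of NPC1, had a log2FC of 0.19 (adjusted p = 0.00321, limma) that was -0.060 with TPM as deposited (adjusted p = 0.187, limma). HEXA, a subunit of beta-hexosaminidase, had a log2FC of 0.080 (adjusted p = 0.153, limma) that was -0.16 with TPM as deposited (adjusted p = 0.0254, limma).

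Of the 14 V-ATPase genes, 11 rose, 2 fell and 1 did not pass the test. Of all tested genes 28.5% rose and 25.9% fell, or 39.6% and 26.6% of those with a mean at least that of TFEB. The 14 had a median log2FC of 0.48, or 0.24 with TPM as deposited, where all tested genes had medians of -0.0020 and -0.20. Of the 14, 10 rose under all 3 scalings, beside 16.3% of all tested genes, and ATP6V1D rose only with the trimmed mean and upper-quartile scalings. The summed TPM of the 14 genes was 976, 960 and 960 in the shCtrl libraries and 1191, 1197 and 1214 in the KD libraries. The summed TPM of the 17 lysosomal hydrolases and membrane proteins was 1494, 1483 and 1484 in shCtrl and 1137, 1096 and 1150 in KD libraries. As single genes these 17 did not move 1 way: 7 rose, 7 fell and 3 did not pass the test. Their median log2FC was -0.010, or -0.25 with TPM as deposited. These sums are given as a description, without a test.

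In the V0 part, ATP6V0C (ENSG00000185883, chromosome 16 from 2513870 to 2520218, forward strand), which encodes the proteolipid of the proton-conducting ring, had the largest rise of the 38 genes. It was at 46.8, 41.2 and 41.0 TPM in shCtrl and at 148, 150 and 162 TPM in KD cells. The KD mean was 358% of the shCtrl mean, and the log2FC was 2.06 (SE 0.058, adjusted p = 1.05e-06, limma), or 1.82 with TPM as deposited. ATP6V0D1, the subunit between ring and rotor, was at 23.3, 23.3 and 22.2 TPM in shCtrl and at 40.3, 41.05 and 45.04 TPM in KD cells. Its log2FC was 1.09 (SE 0.049, adjusted p = 5.34e-06, limma), or 0.85 with TPM as deposited, which is under 2-fold. ATP6V0E1 was at 71.3, 66.3 and 69.3 TPM in shCtrl and at 85.5, 84.5 and 87.4 TPM in KD cells, a log2FC of 0.56 (SE 0.037, adjusted p = 2.82e-05, limma). ATP6V0B, a second proteolipid of the ring, fell from 158 ± 5.38 to 122 ± 1.12 TPM (SD, n = 3), a log2FC of -0.12 (adjusted p = 0.0146, limma). That call was lost with no filter on low values (adjusted p = 0.0763, limma) and without the variance trend (adjusted p = 0.0763, limma).

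In the V1 part, ATP6V1A, the catalytic subunit, rose most. It was at 17.7, 18.5 and 17.1 TPM in shCtrl and at 33.3, 33.0 and 32.5 TPM in KD cells, a log2FC of 1.09 (SE 0.044, adjusted p = 3.16e-06, limma), or 0.85 with TPM as deposited, under 2-fold. Its partner in the catalytic head, ATP6V1B2, fell from 43.8 ± 1.53 to 31.9 ± 0.756 TPM (SD, n = 3), with a log2FC of -0.20 (adjusted p = 0.00542, limma). ATP6V1B2 was therefore the higher of the pair in shCtrl cells, and both were at a like level in KD cells. ATP6V1E1, of the peripheral stalk, was at 72.6, 72.8 and 67.7 TPM in shCtrl and at 108, 109 and 105 TPM in KD cells. Its log2FC was 0.83 (SE 0.038, adjusted p = 5.44e-06, limma).

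The remaining V1 subunits changed less. ATP6V1F, ATP6V1H and ATP6V1G1 rose by log2FC values of 0.49, 0.45 and 0.39, under all 3 scalings. ATP6V1D, of the central rotor, had a log2FC of 0.39 (adjusted p = 0.00157, limma), or 0.15 with TPM as deposited (adjusted p = 0.0863, limma). It shares exon sequence on opposite strands with EIF2S1, and whether the counting used strand is not given in the sources used here. ATP6V1C1 was at 29.6 ± 2.04 TPM in shCtrl and 25.8 ± 1.79 TPM in KD cells (SD, n = 3), with a log2FC of 0.047 (adjusted p = 0.64, limma) that was -0.19 with TPM as deposited (adjusted p = 0.0544, limma). Both accessory proteins rose. ATP6AP1 was at 74.9, 77.2 and 75.2 TPM in shCtrl and at 96.0, 91.0 and 92.4 TPM in KD cells (log2FC 0.54, SE 0.031, adjusted p = 1.52e-05, limma). ATP6AP2, also known as the prorenin receptor, rose by a log2FC of 0.48 (adjusted p = 0.000124, limma).

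**Figure D3:**
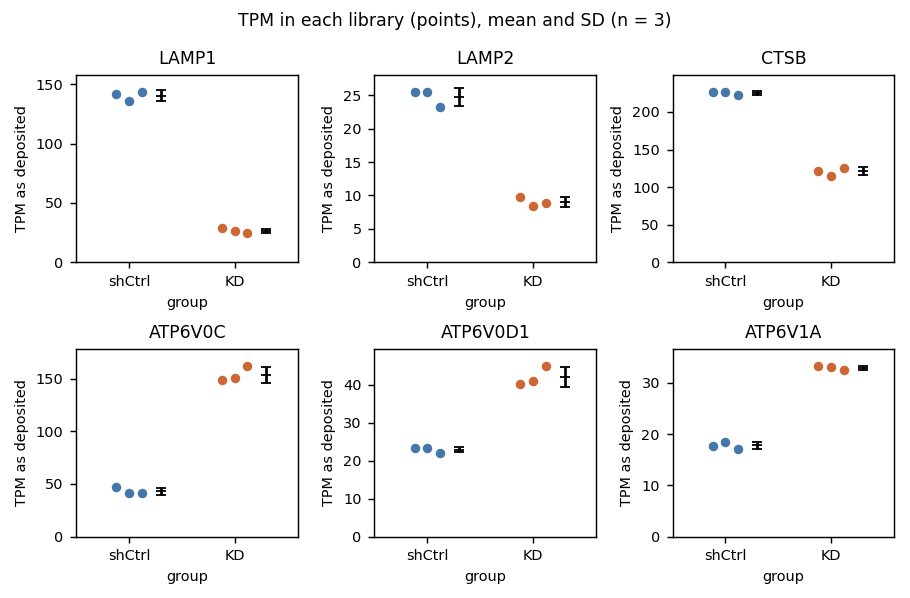
TPM as deposited in each library (points) with the mean and SD (n = 3) for 6 genes, each axis starting at 0. LAMP1, LAMP2 and CTSB are lower, and ATP6V0C, ATP6V0D1 and ATP6V1A higher, in all 3 KD libraries than in any shCtrl library.

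The transcription factors differed from each other. TFE3 was at 24.9, 23.1 and 20.8 TPM in shCtrl and at 15.6, 14.9 and 14.4 TPM in KD cells. All KD libraries were lower, and the log2FC was -0.35 (SE 0.070, adjusted p = 0.00532, limma). TFEB had little RNA, at 5.08, 3.11 and 4.64 TPM in shCtrl and at 4.72, 5.6 and 4.37 TPM in KD cells. The groups overlapped, and the log2FC of 0.38 (SE 0.17, adjusted p = 0.102, limma) did not pass the test. TFEB and TFE3 are regulated largely by their location in the cell, which RNA levels do not show.

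Of the 5 autophagy genes, 2 rose and 1 fell, beside 28.5% and 25.9% of all tested genes, and 2 did not pass the test. GABARAPL1, of the GABARAP branch of vesicle markers, was at 69.4, 72.3 and 74.8 TPM in shCtrl and at 90.2, 92.4 and 99.8 TPM in KD cells. This was a log2FC of 0.62 (SE 0.049, adjusted p = 6.10e-05, limma). MAP1LC3B, which encodes the vesicle marker LC3B, fell from 143 ± 2.11 to 97.0 ± 3.56 TPM (SD, n = 3), a log2FC of -0.31 (adjusted p = 0.000663, limma). The ratio of MAP1LC3B to GABARAPL1 was 2.02, 1.99 and 1.92 in shCtrl and 1.11, 1.06 and 0.932 in KD libraries, lower in every KD library. GABARAP, of the same branch as GABARAPL1, rose too, by a log2FC of 0.53 and under all 3 scalings. GABARAPL2 was less clear, with a log2FC of 0.17 that was -0.071 with TPM as deposited (adjusted p = 0.145, limma). MAP1LC3B has a near-identical copy, MAP1LC3B2, which was at 2.46 ± 0.635 TPM in shCtrl and 2.88 ± 0.596 TPM in KD cells (SD, n = 3), and reads may have been divided between them.

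ULK1, the kinase that starts autophagy, rose by a log2FC of 0.42 (adjusted p = 0.00172, limma), or 0.19 with TPM as deposited (adjusted p = 0.0399, limma). SQSTM1, the cargo receptor p62, was at 324 ± 5.92 TPM in shCtrl and 268 ± 10.5 TPM in KD cells (SD, n = 3). Its log2FC was -0.026 (adjusted p = 0.565, limma), or -0.27 with TPM as deposited (adjusted p = 0.00057, limma). With upper-quartile scaling the log2FC of SQSTM1 was -0.12 (adjusted p = 0.0386, limma). WIPI1, which binds the phosphoinositide of the forming vesicle, had a log2FC of -0.084 (adjusted p = 0.174, limma), or -0.32 with TPM as deposited (adjusted p = 0.00075, limma). With upper-quartile scaling the log2FC of WIPI1 was -0.17 (adjusted p = 0.0196, limma). In the same libraries all 11 tested genes out of 12 listed for the integrated stress response fell, beside 25.9% of all tested genes. Their log2FC values were from -3.35 to -0.67. ATF4, the factor of that response that also acts on autophagy genes, fell from 738 ± 10.5 to 390.4 ± 6.45 TPM (SD, n = 3), and the part of this response in the levels of the autophagy genes was not tested.

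**Figure D4:**
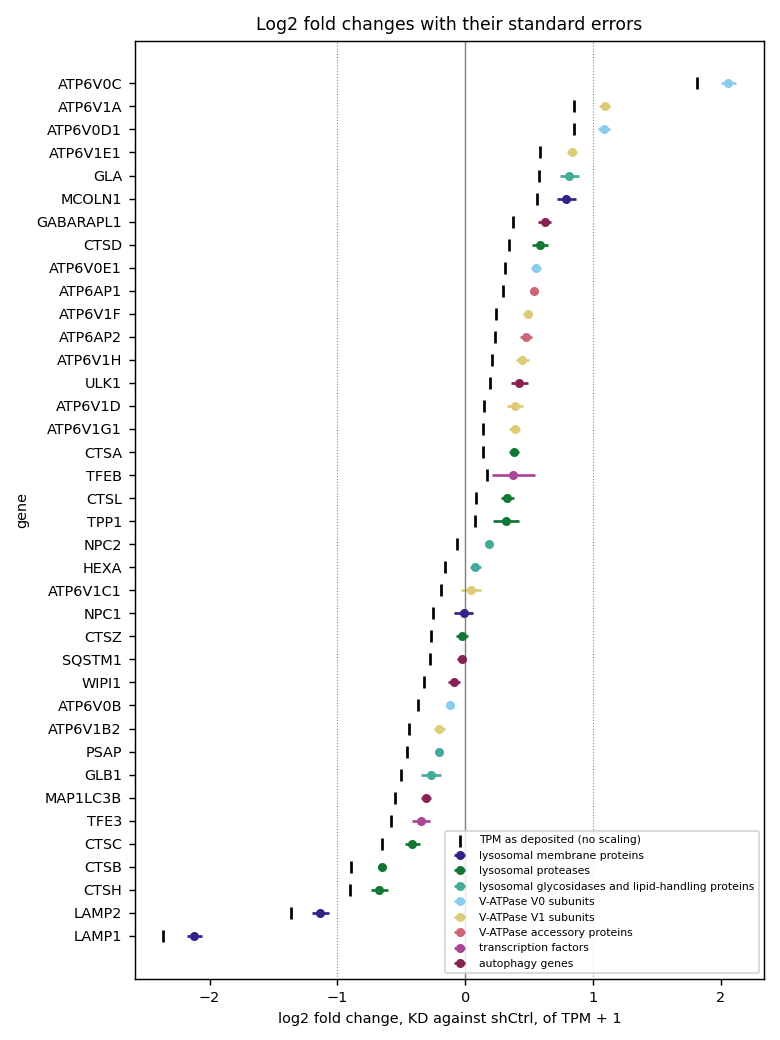
Log2 fold change of each of the 38 genes in KD against shCtrl cells on the scaled log2(TPM + 1) scale, with its SE (points and bars, coloured by role) and the value with TPM as deposited (black ticks). Dotted lines mark 2-fold. The ticks lie to the left of the points throughout, and genes with small changes, such as HEXA and NPC2, lie on different sides of 0 under the 2 scalings.

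Other genes of the pathway were taken from lists of 142 genes, of which 134 were tested. Among them 48 rose, 38 fell and 48 did not pass the test, with a median log2FC of 0.015. With TPM as deposited 24 rose and 63 fell. The shares of all tested genes were 28.5% and 25.9%, or 16.3% and 40.3% with TPM as deposited. Of 9 other V-ATPase genes tested, 2 rose, 3 fell and 4 did not pass. Several of the 9 had little RNA, and their difference from the 14 was not tested. ATP6V1C2, an isoform of the C subunit, fell from 6.10 ± 0.454 to 1.29 ± 0.136 TPM (SD, n = 3), a log2FC of -1.45 (adjusted p = 3.34e-05, limma). TCIRG1, an isoform of the membrane a subunit, fell by a log2FC of -0.37, and ATP6V0E2, an isoform of the e subunit, rose by 0.76.

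Of 30 other lysosomal enzymes tested, 6 rose and 13 fell, or 4 and 19 with TPM as deposited, beside 28.5% and 25.9% of all tested genes, or 16.3% and 40.3%. LGMN, the asparaginyl protease legumain, fell from 70.9 ± 1.39 to 26.8 ± 0.950 TPM (log2FC -1.13) and CTSV, a relative of CTSL, from 16.7 ± 1.28 to 5.29 ± 1.16 TPM (-1.29; SD, n = 3). No gene of this list rose by 2-fold at an adjusted p under 0.05. Of 24 other lysosomal membrane and sorting proteins, 7 rose and 10 fell, or 3 and 14 with TPM as deposited, beside the same shares. SORT1, the sorting receptor sortilin, fell from 15.2 ± 0.581 to 5.09 ± 0.175 TPM (SD, n = 3), a log2FC of -1.19.

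Of 48 other autophagy genes tested, 22 rose and 9 fell, or 12 and 20 with TPM as deposited. The shares of all tested genes were 28.5% and 25.9%, or 16.3% and 40.3%. By the 2-fold rule 2.93% of all tested genes were higher and 4.24% lower. All 5 of this list that changed by 2-fold were higher. They were TOLLIP, a ubiquitin-binding adaptor, from 10.7 ± 0.641 to 30.95 ± 2.69 TPM (log2FC 1.69), ATG4D, a protease of the LC3 family, from 10.4 ± 2.26 to 28.1 ± 1.48 TPM (1.598), ATG9A, the lipid scramblase of the forming vesicle, from 14.2 ± 0.895 to 32.9 ± 1.62 TPM (1.39), ATG2A, a lipid transfer protein, from 9.01 ± 0.702 to 19.3 ± 0.888 TPM (1.25) and PLEKHM1, an adaptor of lysosome fusion, from 14.4 ± 2.29 to 27.0 ± 2.38 TPM (1.102; SD, n = 3). Each of these 5 rose under all 3 scalings. Of 23 tested genes for MiT/TFE factors and lysosomal nutrient sensing, 11 rose and 3 fell, or 4 and 7 with TPM as deposited. The shares of all tested genes are the same as above. None of the 23 changed by 2-fold at an adjusted p under 0.05 in limma.

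**Figure D5:**
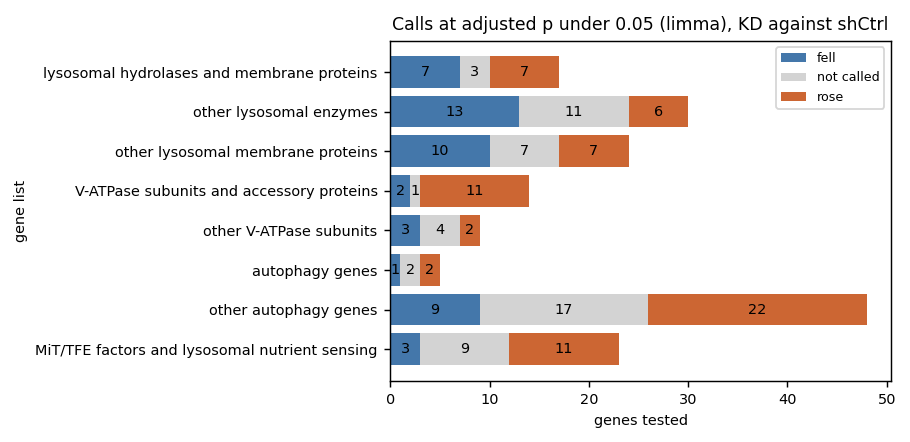
Number of tested genes that fell (blue), were not called (grey) or rose (orange) at an adjusted p under 0.05 in KD against shCtrl cells, for the groups among the 38 genes and the further pathway lists. The V-ATPase members have 11 of 14 genes in orange, and the other lysosomal enzymes have 13 of 30 in blue. Of all tested genes 28.5% rose and 25.9% fell.

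Among the 7 genes with an E-box in the promoter, 5 rose and 2 fell. Of all tested genes 28.5% rose and 25.9% fell, or 39.6% and 26.6% of those with a mean at least that of TFEB. The 7 genes had log2FC values from -2.12 (LAMP1) to 1.09 (ATP6V0D1) and a median of 0.39. The median of the 22 genes with a promoter entry but no E-box was 0.33. The promoter with the most copies of the motif, shown above, thus belonged to the gene that fell most. MCOLN1, CTSA, CTSD, ATP6V1G1 and ATP6V0D1 rose under all 3 scalings, as did 16.3% of all tested genes.

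Short matches to the hairpins were also looked for in the 3′ UTR of 1 GENCODE v29 transcript per gene, after the values were known. The site GTGGTCT, complementary to bases 2 to 8 of the sense strand of shRNA 2, was present in 5 of the 38 genes (13.2%) and in 9.43% of 13015 protein-coding genes tested. LAMP1 held 2 copies, as 1.08% of these genes hold 2 or more, and LAMP2 held 1. The sites in LAMP1 lie on chromosome 13 from 113323496 to 113323514 and from 113323543 to 113323561, and that in LAMP2 on the reverse strand of chromosome X from 120437628 to 120437646. They are shown, with the site in capitals, because both genes were lower in cells with this hairpin.
LAMP1 first site: ttgaggGTGGTCTcggtgc
LAMP1 second site: gtgaggGTGGTCTtggtgc
LAMP2 site: agttttGTGGTCTgagaga

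The other genes with this site were CTSB, which fell, ATP6V0D1, which rose, and ATP6V1C1, which held 2 copies and had a log2FC of 0.047. The site GATGGTA for the antisense strand of shRNA 2, the strand meant to guide the knockdown, was present in LAMP2, which fell, and in ATP6V0E1, which rose. Over all 13015 genes, the median log2FC was -0.070 with the sense-strand site and 0.017 without it. The shift was of like size for the sense-strand site of the shCtrl hairpin, at -0.073 with the site and 0.017 without it, and for the antisense-strand site of shRNA 2 at -0.071 and 0.017. For the antisense-strand site of the shCtrl hairpin the medians were 0.028 and 0.0092. The site CGCCCTC for the antisense strand of the shCtrl hairpin was found among the 38 in ATP6V0C alone, and in 4.43% of all genes. The site ACCTTAG for its sense strand was present in ATP6V0C and TPP1, and in 6.84% of all genes. Whether any of these matches contributed to the levels was not tested.

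Across the 38 genes, the log2FC had a Pearson's r of -0.34 and a Spearman's rho of -0.41 with log2 transcript length, and an r of 0.16 and a rho of 0.070 with GC content. Over the 13015 protein-coding genes the same values were -0.11 and -0.14 for length and 0.12 and 0.12 for GC content. These are descriptions across genes, which share the same 6 libraries and are not replicates.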

How the data were processed

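Poly-A RNA was sequenced, and the authors deposited each library as TPM values of Ensembl genes, with sums of 991058 to 992992. Their methods name Cufflinks and RSEM. The submitters' processing notes name Trimmomatic 0.27, TopHat2 2.1.1 and GRCh38.p13, and the annotation is not given in the sources used here. TPM keeps no read total, so depth is unknown and no counting error is given. Lines of 2 genes held no value and were left out.

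Here, libraries were scaled by a trimmed mean of log ratios (30% of log ratios and 5% of mean values trimmed from each end), and log2(TPM + 1) was compared by limma 3.58.1 (R 4.3.3) using a variance trend. The fit was tested on simulated data. Python 3.11.15 was used for the rest. Positions and transcripts came from GENCODE v29 and promoters from RefSeq. The 38 genes and the lists were chosen with earlier results of these data known. Named with each library's values were genes with a log2 fold change of at least 0.5 in size at an adjusted p under 0.05, and LAMP1, LAMP2, TFEB and TFE3. From each pathway list, up to 6 genes changed 2-fold with at least 5 TPM were named, except 1 that is not reported here. ATP6V0E2, TCIRG1, GABARAP and GABARAPL2 were chosen after their values were seen.

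Same-numbered libraries did not deviate together, with correlations of 0.029, -0.038 and 0.014 for numbers 1 to 3. Alternatives covered scaling, pseudocount, filter, trend, replicate block and leaving out each library.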

Additional observations from a re-analysis of the deposited data

How the results depend on the processing

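Of the 38 genes, 31 were called with the trimmed mean scaling, and 28 to 32 under the alternatives. With the trimmed mean scaling 54.3% of all tested genes were called, 28.5% higher and 25.9% lower. Of those with a mean at least that of TFEB, 66.1% were called. With the replicate block 31 were called, 20 higher and 11 lower, as without it, and no call changed. The labels do not say whether the numbers pair the samples, and same-numbered libraries did not deviate together. The count of genes changed 2-fold was 5, or 3 with TPM as deposited, where ATP6V0D1 and ATP6V1A came under 2-fold. The median log2 fold change of 0.33 was 0.084 with TPM as deposited and 0.24 with upper-quartile scaling, where the median of all genes was -0.20 and -0.073. Leaving out each library gave 0.26 to 0.35 for the median, 29 to 30 genes called, 19 to 20 higher, 10 to 11 lower and 5 changed 2-fold.

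Signs changed only in genes with small log2 fold changes. Of these, NPC2 alone had been called with the trimmed mean scaling, as higher (0.19, adjusted p = 0.00321, limma). On deposited TPM, log2 fold changes were -0.16 for HEXA, -0.060 for NPC2 and -0.19 for ATP6V1C1. With upper-quartile scaling it was -0.0065 for HEXA and -0.040 for ATP6V1C1. With no filter it was 0.022 for NPC1, 0.0073 for CTSZ and 0.0063 for SQSTM1. Leaving out each library gave -0.031 to 0.091 for ATP6V1C1, -0.089 to 0.054 for NPC1 and -0.056 to 0.012 for SQSTM1. The call of ATP6V0B was lost with no filter (adjusted p = 0.0763, limma) and without the variance trend (adjusted p = 0.0763, limma). That of TPP1 was lost with no filter (adjusted p = 0.0659, limma), without the variance trend (0.0546) and with upper-quartile scaling (0.0944). That of GLB1 was lost with no filter (adjusted p = 0.0997, limma), and that of NPC2 with upper-quartile scaling (adjusted p = 0.05003, limma). The cause of these moves was not tested, apart from the shift that scaling applies to all genes.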
